A study of Mus musculus with 4 samples.

Results

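In a droplet-based single cell experiment most barcodes never meet a cell, and the few transcripts they carry are commonly taken to come from RNA that floats free in the suspension. Here free RNA droplets were taken as all barcodes with 1 to 100 unique molecular identifiers (UMIs, 1 per captured transcript), and their summed transcripts were set against those of the cells of the same library. Cells were barcodes with 5000 to 75000 UMIs, 200 to 7500 genes and under 10% of UMIs from the mitochondrial genome (mt- genes). There were 6395407 barcodes of 1 to 100 UMIs among 6454678 with at least 1 UMI, beside 28262 cells. The name free RNA droplets rests on this limit alone: whether each such barcode was a droplet with free RNA was not tested. The study asked how de-differentiated fat (DFAT) cells, obtained by letting floating adipocytes of mouse fat lose their lipid in ceiling culture, differ from cells of the stromal vascular fraction (SVF) grown from the same fat. There were 4 groups, each sequenced as 1 library: DFAT cells of inguinal white adipose tissue (iWAT_DFAT), DFAT cells of epididymal white adipose tissue (eWAT_DFAT), and SVF cells of the same depots (iWAT_SVF and eWAT_SVF). All were primary cultures from chow-fed male C57BL/6J mice, were trypsinised, washed and sorted for live cells with 7-AAD, a dye that enters dead cells, and were loaded on the 10x Genomics 3′ v3.1 chemistry. With 1 library per group no test between groups was run, so every interval below covers counting error only, and a difference between groups cannot be told apart from a difference between 2 preparations.

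The 3′ chemistry primes on stretches of A, chiefly the poly(A) tails of mRNAs, so that ribosomal RNA, which has no such tail, is mostly passed over. RNA enters the suspension from cells that break or leak, and is then shared out over the droplets. In the mouse annotation a few long non-coding genes lie over the ribosomal RNA (rRNA) sequence of chromosome 17, and UMIs counted to them are commonly used as a reading of rRNA carried into a library. The mitochondrial genome is transcribed inside the organelle, and a damaged cell can lose its cytosol while it keeps its mitochondria. Replication-dependent histone mRNAs, made in S phase, end in a stem-loop and mostly lack a poly(A) tail.

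The RNAs below are shown because the first pair lies over rRNA sequence and reached 7040 to 66645 CPM (UMIs per 1000000) in free RNA for Gm42418, and because Bc1 and Snhg9 are 2 short non-coding RNAs higher in all 4 libraries. All are from the GENCODE M21 transcripts of GRCm38. Gm42418 (chr17:39846958-39848788, + strand) and AY036118 (chr17:39847113-39848035, − strand) both lie inside an annotated rRNA gene on the − strand (chr17:39846353-39848827). AY036118, 923 nucleotides long, is the exact reverse complement of bases 156 to 1078 of the 1831 nucleotides of Gm42418. Capitals in the first pair mark the longest run of A in Gm42418, bases 210 to 215, and the run of T that lies opposite in AY036118, both drawn from chr17:39847113-39847232. In the brain cytoplasmic RNA Bc1 (chr7:144914470-144914637, + strand, 1 exon) they mark a run of 23 A, and in the spliced transcript of the snoRNA host gene Snhg9 (chr17:24719531-24719965, − strand, 2 exons) the polyadenylation signal AATAAA at bases 164 to 169.
Gm42418 bases 156 to 275: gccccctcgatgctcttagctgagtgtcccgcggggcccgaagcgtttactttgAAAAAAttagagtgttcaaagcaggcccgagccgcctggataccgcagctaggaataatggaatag
AY036118 bases 804 to 923: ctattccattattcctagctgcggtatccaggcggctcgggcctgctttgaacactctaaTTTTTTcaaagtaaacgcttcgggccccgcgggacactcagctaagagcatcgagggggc
Bc1: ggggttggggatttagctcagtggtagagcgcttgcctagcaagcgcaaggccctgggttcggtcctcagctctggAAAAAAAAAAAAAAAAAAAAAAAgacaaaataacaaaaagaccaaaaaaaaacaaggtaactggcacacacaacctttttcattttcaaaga
Snhg9: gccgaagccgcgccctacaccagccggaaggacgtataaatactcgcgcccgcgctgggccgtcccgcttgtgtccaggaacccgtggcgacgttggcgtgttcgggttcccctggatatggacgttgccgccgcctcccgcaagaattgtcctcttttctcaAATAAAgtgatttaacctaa

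Free RNA was a small and similar share of each library. The free RNA droplets numbered 1622969 in iWAT_DFAT, 1683121 in eWAT_DFAT, 1672661 in iWAT_SVF and 1416656 in eWAT_SVF, and held 7246192, 7408127, 7138868 and 7097865 UMIs. This was 3.43%, 3.38%, 2.95% and 2.93% of all UMIs, out of library totals of 211396227 to 242282812. The libraries held 7629, 6464, 7424 and 6745 cells with a median of 22111 to 27617 UMIs and 5057 to 5400 genes. Cells of different libraries shared 13 to 20 barcodes per pair of libraries. Of the free RNA barcodes, 0.338 to 0.431% lay 1 mismatch from a barcode of 500 or more UMIs, and 0.523 to 0.559% were a cell barcode in another library. The header of the iWAT_SVF matrix names another version of the counting program than the other 3 headers, so that a value that sets iWAT_SVF apart cannot be told apart from this difference in counting.

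The free RNA droplets were not of 1 kind. Most barcodes held 1 to 10 UMIs (1545633, 1598284, 1576167 and 1348061 barcodes in iWAT_DFAT, eWAT_DFAT, iWAT_SVF and eWAT_SVF, the order kept below wherever 4 values follow each other). A second, far smaller population of 74440, 81473, 85303 and 65473 barcodes held 21 to 100 UMIs, with medians of 62, 57, 42 and 75. Between them lay only 2896, 3364, 11191 and 3122 barcodes of 11 to 20 UMIs. The droplets of 21 to 100 UMIs held more UMIs than those of 1 to 10 in every library, 4711184 against 2494810 in iWAT_DFAT and 3817901 against 3165275 in iWAT_SVF, where the 2 were closest. The next band, over 100 and up to 500 UMIs, was left out of the free RNA and held 6567, 2967, 1319 and 14194 barcodes. The upper limit of 100 UMIs therefore cut through the tail of the second population to a differing degree, most in eWAT_SVF.

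**Figure D1:**
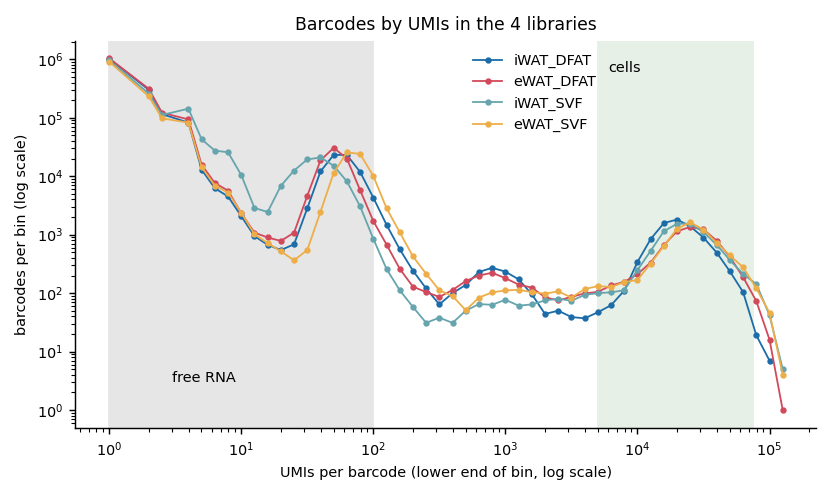
Number of barcodes (log axis) against UMIs per barcode (log axis) in the 4 libraries, in bins of 0.1 on the log10 scale. Each library shows many barcodes of 1 to 10 UMIs, a second population centred at the medians of 62, 57, 42 and 75 UMIs, and the cells above 5000 UMIs.

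Free RNA resembled the cells of its own library, and few genes stood apart. Levels are given as UMIs per 1000000 UMIs of the same droplets (CPM), and differences as the log2 of the level in free RNA over the level in cells. Of all genes in the files, 7207 had a mean of 10 CPM or more over free RNA and cells in every library. Of these, 19 genes (0.264% of the 7207) were at least 2-fold higher in free RNA in all 4 libraries, and 0 (0%) were at least 2-fold lower. A gene can pass this filter through the free RNA in which it is high, so these counts depend on it: of the 19, 10 were below 10 CPM in the cells of at least 1 library, and Gm19951 and Gm11290 in all 4. With the filter set on the level in cells alone, a choice made after seeing the data, 9 of 7240 genes (0.124%) were higher in all 4 libraries and 0 (0%) lower. These 9, all among the 19, were Gm42418, AY036118, Gm26917, Cmss1, Camk1d, Gphn, Cdk8, Lars2 and Gm20560, and the values of the other 10 genes are a description. In single libraries 26 (0.361%), 20 (0.278%), 38 (0.527%) and 30 (0.416%) of the 7207 genes were 2-fold higher. Among genes that passed the level filter in the library itself, these were 42 of 8375 (0.501%), 43 of 8107 (0.53%), 65 of 8210 (0.792%) and 39 of 7960 (0.49%). Of the 7207, only 2 genes in iWAT_DFAT (0.0278%) and 2 in eWAT_DFAT (0.0278%) were 2-fold lower, against 0 (0%) in both SVF libraries. Over the 7207 genes the median log2 difference was -0.11, -0.07, -0.01 and -0.14, its SD across genes 0.27, 0.26, 0.28 and 0.30, and 96.2 to 98.7% of genes lay within 1.5-fold. Across genes, log2 CPM of free RNA correlated with that of the cells of the same library at a Pearson r of 0.983 to 0.986, and with the cells of the other libraries at 0.880 to 0.960. The genes are not independent replicates, so these coefficients are a description. By annotated type the 19 genes were 10 long non-coding ones, the short Bc1 and Snhg9 among them, and 9 protein-coding ones. With the filter on cells alone, 4 of 75 genes that are not protein-coding (5.33%) and 5 of 7165 protein-coding ones (0.0698%) were higher in all 4 libraries. The 4 were Gm20560 and the neighbouring genes Gm42418, AY036118 and Gm26917, so the larger share rests mostly on a single locus.

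**Figure D2:**
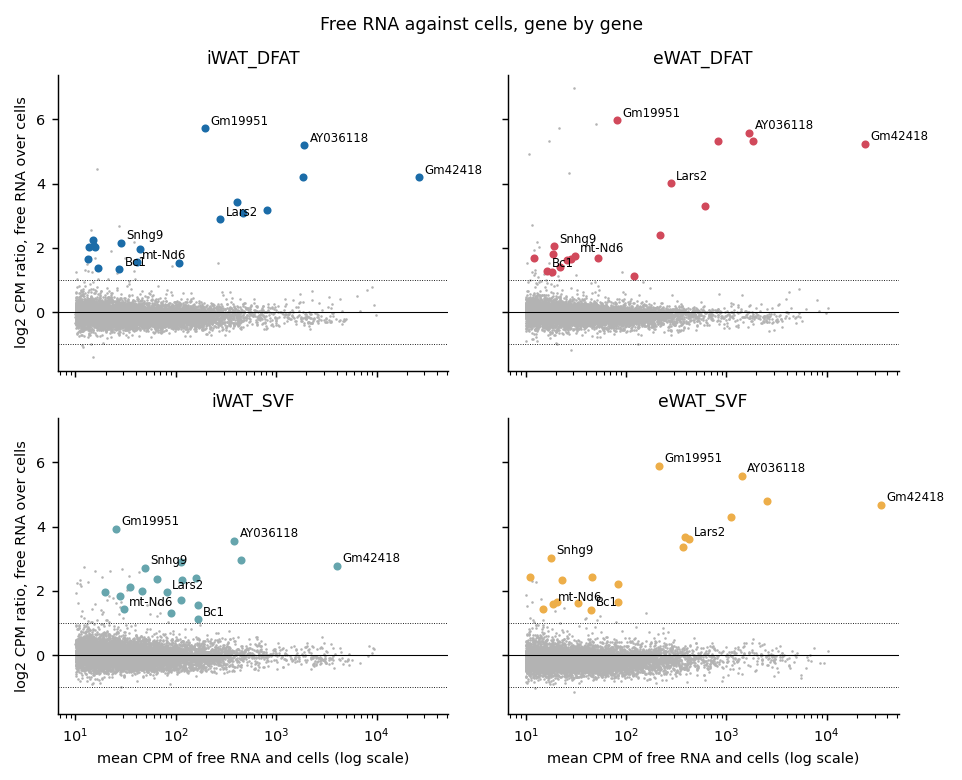
Log2 of free RNA over cells (y axis) against the mean CPM of free RNA and cells (x axis, log scale) 1 panel per library, for genes at 10 CPM or more in that library (grey) and the 19 genes higher in all 4 (coloured), with dotted lines at 2-fold. The cloud is narrow around medians of -0.11, -0.07, -0.01 and -0.14 over the 7207 genes, and Gm42418 stands far above it.

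The genes at the rRNA locus took a larger share of the free RNA than of the RNA of cells in every library. Gm42418 reached 49796, 46946, 7040 and 66645 CPM in free RNA, against 2706, 1243, 1029 and 2605 CPM in cells. Free RNA was thus high in iWAT_DFAT, eWAT_DFAT and eWAT_SVF and several times lower in iWAT_SVF, while the levels in cells were within a narrower range. The log2 difference was 4.20 (95% interval 4.20 to 4.21), 5.24 (5.23 to 5.25), 2.77 (2.76 to 2.79) and 4.68 (4.67 to 4.68). All cells carried Gm42418 (100% of cells with a UMI in each library). Its antisense neighbour AY036118 was at 3702, 3307, 707 and 2792 CPM in free RNA and 100.96, 69.0, 59.8 and 58.4 CPM in cells, a log2 difference of 5.20, 5.58, 3.56 and 5.58. UMIs of such a sense and antisense pair can be parted only by strand, and reads from the many rRNA copies of the genome may be assigned to this locus. Gm26917, which ends just before Gm42418 (chr17:39843013-39846341, + strand), was higher by far less: 160 against 54.6, 163 against 75.4, 128 against 51.8 and 126 against 39.5 CPM. Its log2 difference was 1.55, 1.12, 1.30 and 1.67. The 3 genes together were 5.37%, 5.04%, 0.788% and 6.96% of free RNA and 0.286%, 0.139%, 0.114% and 0.270% of the RNA of cells. With the 3 genes taken out of the totals, the median log2 difference of all genes became -0.03, 0.00, 0.00 and -0.04. This change largely follows by arithmetic, since a larger share is taken out of the free RNA totals than out of those of cells.

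A further 6 genes were high in free RNA together with Gm42418, 5 of them long protein-coding genes and 1 a non-coding gene. Cmss1, a protein of the nucleolus linked to the small ribosomal subunit (chr16:57302000-57606864), was at 3529, 3580, 795 and 4859 CPM in free RNA and 192, 89.2, 103 and 176 CPM in cells. Its log2 difference of 4.20 (4.18 to 4.22), 5.33 (5.30 to 5.36), 2.95 (2.91 to 2.99) and 4.79 (4.76 to 4.81) followed that of Gm42418 from library to library. For each 1000 UMIs of Gm42418 there were 70.9, 76.3, 113 and 72.9 UMIs of Cmss1 in free RNA and 70.9, 71.7, 100 and 67.6 in cells, so the ratio of the 2 genes was nearly that of the cells in each library. Gm19951 (chr12:99643093-99647221, + strand), a long non-coding gene, was low in cells, at 7.22, 2.56, 3.07 and 7.03 CPM, and reached 381, 161, 47.1 and 418 CPM in free RNA. Its log2 difference of 5.72, 5.98, 3.94 and 5.89 was the highest of the 19 genes in each library. Gm19951 passed the level filter only through the free RNA in which it was high, so its values and this rank are a description. Camk1d, a calcium/calmodulin-dependent kinase (chr2:5293457-5714515), stood out in eWAT_DFAT, with 1616 CPM in free RNA and 40.2 in cells (log2 5.33), against 844 and 98.4 in iWAT_DFAT (3.10), 198 and 26.6 in iWAT_SVF (2.90) and 719 and 55.5 in eWAT_SVF (3.69). Gphn, which encodes the inhibitory synapse scaffold gephyrin (chr12:78226379-78684772), was highest in eWAT_SVF, with 2143 CPM in free RNA and 109 in cells (4.30). In the other libraries Gphn had 1454 and 160 (3.18), 1118 and 114 (3.30) and 250 and 84.7 CPM (1.56). Cdk8, a kinase of the Mediator complex (chr5:146231230-146302874), had 751, 365, 172 and 676 CPM in free RNA and 69.2, 69.3, 52.9 and 64.9 in cells, with log2 differences of 3.44, 2.40, 1.70 and 3.38. Lars2, the mitochondrial leucyl-tRNA synthetase (chr9:123366927-123462666), had 489, 525, 129 and 781 CPM in free RNA and 66.1, 32.5, 33.1 and 63.9 in cells (2.89, 4.01, 1.96 and 3.61). All 7 genes, Gm42418 included, were lowest in the free RNA of iWAT_SVF, and their UMIs per 1000 of Gm42418 in free RNA varied between libraries, from a range of 23.8 to 35.5 for Gphn to one of 10.8 to 34.4 for Camk1d. The stated method counts reads from introns, but whether they were counted in iWAT_SVF, whose header names the older program version, is not known. Whether this moved its values here was not tested. Gm42418 has 1 exon. Per 1000 Gm42418 UMIs in free RNA, iWAT_SVF was highest for Cmss1, Gphn, Cdk8 and Lars2 (113, 35.5, 24.5 and 18.3), but not for Camk1d and Gm19951. Which bases of these genes the UMIs came from was not tested. The kinase gene Dgkb passed the level filter in iWAT_DFAT alone, through its free RNA, so its values are a description. It had 31.5 against 1.44, 6.88 against 0.318, 16.9 against 1.03 and 0.986 against 0.0962 CPM, the last on 7 free UMIs. Unlike the genes above, its free RNA was not lowest in iWAT_SVF.

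In a second set of higher genes only Bc1 had its lowest ratio in iWAT_SVF. The mitochondrial mt-Nd6, given below, was also lowest there. All of this set but Gm20560 were below 10 CPM in the cells of at least 1 library, so their values are a description. Snhg9, the host of a small nucleolar RNA, had 46.0, 31.2, 84.7 and 32.0 CPM in free RNA and 10.3, 7.52, 12.8 and 3.91 in cells, a log2 difference of 2.16 (1.98 to 2.33), 2.05 (1.84 to 2.25), 2.72 (2.59 to 2.85) and 3.03 (2.81 to 3.25). Snhg9 overlaps the ribosomal protein gene Rps2 on the other strand, and Rps2 itself was lower in free RNA, at log2 -0.36, -0.32, -0.31 and -0.39. The non-coding genes 1700034P13Rik and Gm20560 came next to Snhg9. 1700034P13Rik had 25.0, 29.2, 108 and 38.5 CPM in free RNA and 6.06, 8.27, 20.97 and 7.56 in cells (2.04, 1.82, 2.37 and 2.35), and Gm20560 had 69.4, 81.1, 191 and 77.5 CPM against 17.6, 25.0, 37.6 and 14.3 (1.98, 1.70, 2.35 and 2.43). The long non-coding genes Gm11290 (2.26, 1.69, 1.97 and 2.45) and 1700120C14Rik (1.66, 1.41, 2.01 and 1.64) were of like size. Among protein-coding genes of this set, Tuft1, which encodes the tooth enamel protein tuftelin, was at 21.9, 38.6, 264 and 139 CPM in free RNA and 5.37, 12.6, 50.4 and 29.6 in cells (2.03, 1.61, 2.39 and 2.23). Spint2, an inhibitor of serine proteases at the cell surface, had 24.8, 43.1, 56.6 and 50.7 against 6.02, 13.7, 12.9 and 16.4 CPM (2.04, 1.66, 2.13 and 1.63). Bc1, the RNA polymerase III transcript whose internal run of 23 A is shown above, had 39.3, 22.9, 227 and 64.8 CPM in free RNA and 15.6, 9.44, 105 and 24.4 in cells. Its log2 difference of 1.34, 1.28, 1.11 and 1.41 included the smallest value of the 19 genes, 1.11 in iWAT_SVF. Just outside the limit lay Hspa1b, an inducible chaperone of the HSP70 family chosen here after its values were seen, at 1.03, 0.98, 0.97 and 1.47. Rpgrip1, a protein of the photoreceptor cilium, had 24.0, 25.6, 43.1 and 21.6 against 9.30, 10.8, 11.96 and 7.99 CPM (1.37, 1.25, 1.85 and 1.43).

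Short motifs did not set the 19 genes apart by count, a description only, since some of them passed the level filter through free RNA. In the longest transcript of each gene, read on its own strand, a run of 6 or more A was present in 12 of the 19 genes and in 69.4% of the 7203 genes with a transcript. A run of 6 or more T was present in 11 of the 19 and in 72.2% of all. The hexamer AATAAA was present in 14 of the 19 and in 86.8% of all, and a run of 20 or more A in 1 of the 19, Bc1, and in 2.28% of all. These matches describe the letters of annotated transcripts and include no introns.

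The 2 populations of free RNA droplets differed in their transcripts. Gm42418 was found in 97.6%, 96.3%, 40.3% and 98.4% of the droplets of 21 to 100 UMIs, with up to 30, 28, 21 and 31 UMIs in 1 droplet, and in 0.556%, 0.374%, 0.213% and 0.633% of the droplets of 1 to 10 UMIs. As a share of UMIs it was 7.47%, 7.24%, 1.21% and 9.59% of the deeper droplets but 0.397%, 0.278%, 0.143% and 0.471% of barcodes with 1 UMI, nearer to the 0.271%, 0.124%, 0.103% and 0.260% of cells. Against cells its log2 difference was 4.79, 5.86, 3.55 and 5.20 in the deeper droplets and 0.36, 0.87, 0.05 and 0.58 in the shallow ones. Cmss1 moved the same way, at 4.78, 5.95, 3.73 and 5.31 against 0.56, 0.99, 0.20 and 0.84. So did Snhg9, at 2.58, 2.44, 3.50 and 3.49 against 0.67, 0.82, 0.24 and 0.59. Bc1 was at 1.66, 1.64, 1.69 and 1.72 in the deeper droplets and 0.45, 0.31, -0.12 and 0.40 in the shallow ones. Gm26917 went the other way, at 2.52, 2.13, 2.07 and 2.97 in the shallow droplets and 0.51, -0.14, 0.08 and 0.08 in the deeper ones. The same held for mt-Nd6, the 1 mitochondrial mRNA coded on the light strand, at 2.34, 2.47, 1.91 and 2.84 in the shallow droplets and 0.85, 1.07, 0.87 and 0.18 in the deeper ones. Rpgrip1 was higher in the shallow droplets of iWAT_DFAT (2.31 against 0.40), eWAT_DFAT (1.77 against 0.82) and eWAT_SVF (1.76 against 1.27), but not of iWAT_SVF (1.81 against 1.89). AY036118 and Gm19951 were high in both: AY036118 at 2.51, 2.61, 1.45 and 2.80 in the shallow and 5.74, 6.16, 4.28 and 6.06 in the deeper droplets. With droplets of 1 to 10 UMIs alone 8 of 7193 genes were 2-fold higher in all 4 libraries, 4 of them among the 19. With those of 21 to 100 UMIs alone 20 of 7169 genes were, 16 of them among the 19. Across the 7207 genes the log2 levels of the shallow droplets correlated with those of the cells of their own library at Pearson r = 0.986, 0.985, 0.991 and 0.980, and those of the deeper droplets at 0.978, 0.981, 0.969 and 0.976. Where the UMIs of the shallow droplets come from was not tested.

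**Figure D3:**
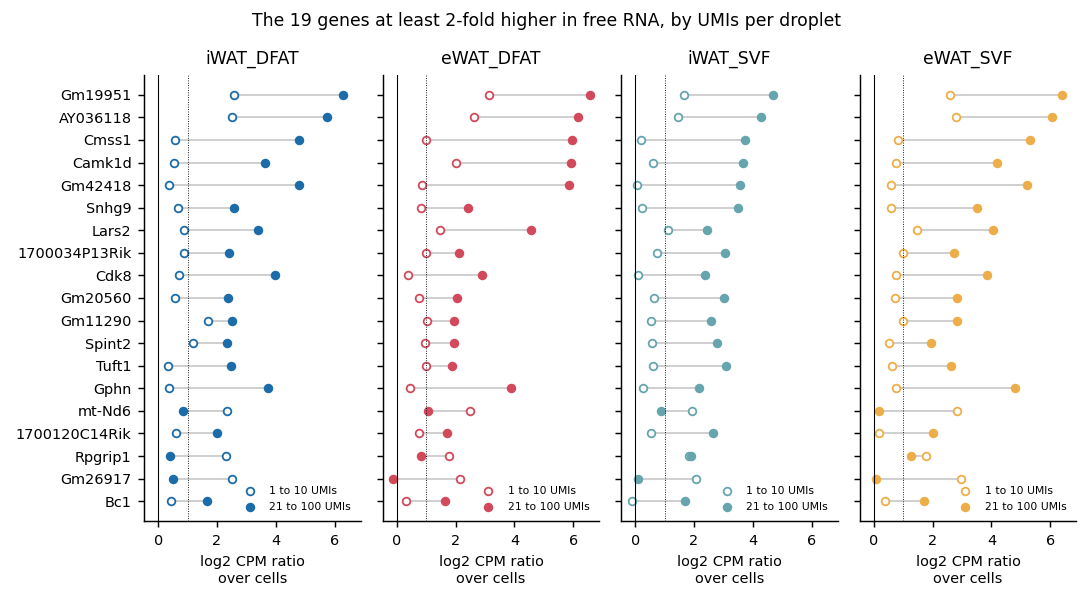
Log2 of free RNA over cells for the 19 genes in droplets of 1 to 10 UMIs and in droplets of 21 to 100 UMIs, 1 panel per library. Gm42418, Cmss1 and Gm19951 lie far higher in the deeper droplets, while Gm26917 and mt-Nd6 lie higher in the shallow ones.

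No gene was 2-fold lower in free RNA in all 4 libraries, and the lowest ones differed by less than 1 on the log2 scale. Atxn7l3b, a relative of a chromatin-modifying complex subunit, had 103, 106, 124 and 129 CPM in free RNA and 172, 174, 194 and 215 in cells (-0.74, -0.72, -0.64 and -0.73). Mtdh, a membrane and RNA-binding protein known as metadherin, had 157, 212, 198 and 170 against 249, 346, 285 and 287 CPM (-0.66, -0.70, -0.52 and -0.76). Lman1, a cargo receptor between the endoplasmic reticulum (ER) and the Golgi, had 182, 190, 186 and 142 against 259, 292, 267 and 259 CPM (-0.51, -0.62, -0.52 and -0.86). The protein kinase Pkn2 (-0.65, -0.54, -0.56 and -0.56), the centriole protein Cep164 (-0.78, -0.66, -0.53 and -0.60) and the TEAD cofactor Vgll4 (-0.62, -0.53, -0.51 and -0.68) followed, with Tigd2, Tbc1d8b, Rp9 and Dusp23 between -0.51 and -0.85. Each was lower in all 4 libraries, against medians of all genes of -0.01 to -0.14. Among the 7207 genes, those past 2-fold lower in 1 library were Etaa1, a replication stress factor (7.73 against 15.5 CPM, -1.01), and Fam122a (7.59 against 16.1 CPM, -1.09) in iWAT_DFAT. In eWAT_DFAT they were the histone gene Hist1h4d (17.7 against 39.7 CPM, -1.17) and the cell cycle inhibitor gene Cdkn2a (13.8 against 27.6 CPM). Among genes that passed the level filter in the library itself, 3 of 8375 (0.0358%), 2 of 8107 (0.0247%), 0 of 8210 (0%) and 2 of 7960 (0.0251%) were 2-fold lower. These added Gm11084 in iWAT_DFAT (8.28 against 21.8 CPM, -1.40) and, in eWAT_SVF, the olfactory receptor gene Olfr1033 (18.9 against 41.3 CPM, -1.13) and the growth factor gene Fgf18 (8.17 against 16.7 CPM, -1.03). Etaa1, Fam122a, Gm11084 and Fgf18 were below 10 CPM in free RNA and passed only through cells, so their values are a description.

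Long genes were somewhat lower in free RNA in iWAT_DFAT, iWAT_SVF and eWAT_SVF, while in eWAT_DFAT this differed between droplets. The 639 genes spanning over 150 kb had a median log2 difference of -0.25, -0.08, -0.26 and -0.24, and the 2187 genes of 5 to 20 kb one of -0.04, -0.06, 0.07 and -0.10. In the droplets of 1 to 10 UMIs of eWAT_DFAT the genes over 150 kb were at -0.20 and those of 5 to 20 kb at 0.003, as in the other libraries, but in its droplets of 21 to 100 UMIs the order turned, with -0.02 and -0.12. By the longest transcript, the 514 genes over 8 kb were at -0.24, -0.11, -0.20 and -0.25 and the 351 genes up to 1 kb at -0.05, -0.07, 0.04 and 0.06.

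The mRNAs of the mitochondrial genome were more abundant in the free RNA of both DFAT libraries, near parity in iWAT_SVF and less abundant in eWAT_SVF. They took 4.67%, 2.80%, 2.23% and 1.68% of free RNA and 3.18%, 2.03%, 2.13% and 2.23% of the RNA of cells, whose share the limit of 10% partly sets. The log2 difference was 0.55, 0.46, 0.07 and -0.41. Of the 13 mRNAs, 13, 13, 8 and 3 were above 0, where 29.5%, 33.4%, 48.8% and 26.2% of all 7207 genes were, so the count in eWAT_SVF was near that of all genes, with a median of 0.42, 0.43, 0.09 and -0.31. The genes mt-Atp6, mt-Co2 and mt-Cytb encode subunits of ATP synthase, of cytochrome c oxidase and of complex III. mt-Atp6 had 11505, 6610, 4720 and 3582 CPM in free RNA and 6634, 4037, 4005 and 4040 in cells (0.79, 0.71, 0.24 and -0.17). mt-Co2 had 7436, 4476, 3234 and 2688 against 5195, 3333, 3405 and 3863 CPM (0.52, 0.43, -0.07 and -0.52), and mt-Cytb 4904, 3638, 3008 and 2322 against 3722, 3044, 3087 and 3648 CPM (0.40, 0.26, -0.04 and -0.65). mt-Nd6 stood apart from the other 12, at 61.1, 47.5, 44.3 and 28.0 against 20.8, 14.1, 16.4 and 9.31 CPM (1.56, 1.75, 1.43 and 1.59), and was the 1 mt- gene among the 19. The low value of eWAT_SVF came with its deeper droplets: the log2 difference was 0.81, 0.62, 0.23 and 0.18 in droplets of 1 to 10 UMIs and 0.40, 0.37, -0.09 and -0.79 in those of 21 to 100. Above the free RNA limit the mt- share was higher, with 8.42%, 12.4%, 4.62% and 1.71% at over 100 and up to 500 UMIs and 61.7%, 31.4%, 18.3% and 21.6% between 500 and 5000 UMIs. These are shares of summed UMIs, which a minority of droplets can carry. The median droplet between 100 and 5000 UMIs had 3.77%, 2.63%, 1.92% and 0.909% of its UMIs from mt- genes, beside 3.12%, 1.95%, 2.18% and 2.25% in the median cell, while the 95th percentile of these droplets was at 87.3%, 86.2%, 79.9% and 6.54%.

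**Figure D4:**
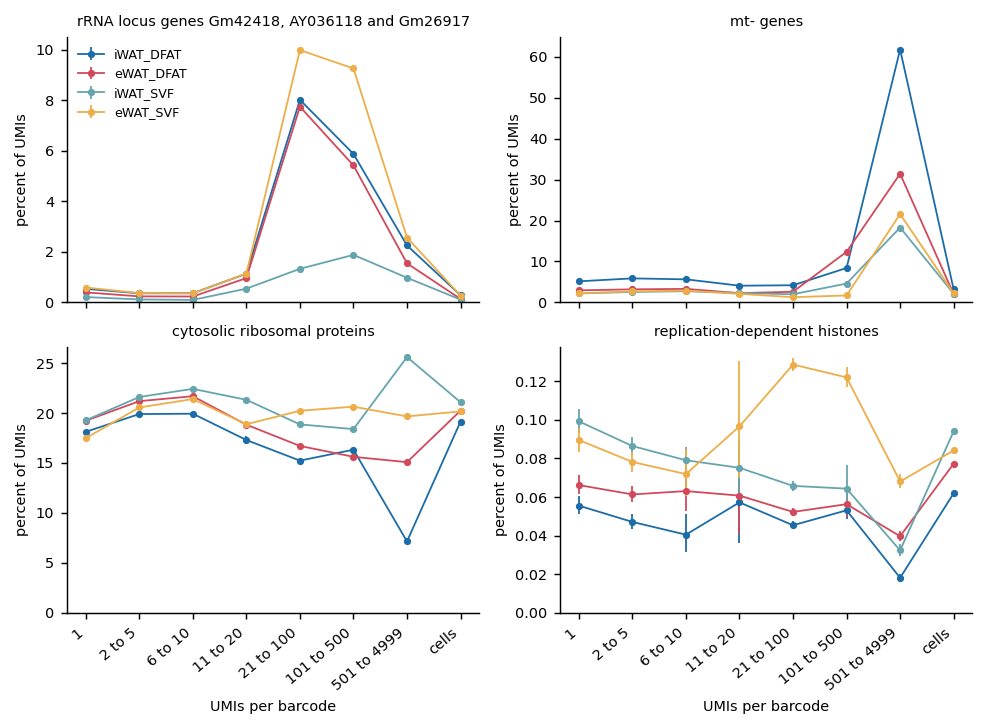
Share of UMIs (percent, with 95% counting intervals) by UMIs per barcode, from 1 UMI to cells, 1 line per library, for the rRNA locus genes, the mt- genes, ribosomal protein genes and histone genes in 4 panels. The rRNA locus share peaks in the bands of 21 to 100 and 100 to 500 UMIs, and the mt- share of summed UMIs between 500 and 5000 UMIs, where it reaches 61.7% in iWAT_DFAT.

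The replication-dependent histone mRNAs, whose proteins package new DNA in S phase, were lower in summed level in the free RNA of 3 libraries and higher in eWAT_SVF. The list of 67 genes was taken by symbol alone. Of these, 9 passed the level filter in all 4 libraries, with a median log2 difference of -0.53, -0.52, -0.52 and 0.36, beside -0.11, -0.07, -0.01 and -0.14 over all genes. Of the 9, 3, 2, 3 and 9 were above 0, where 29.5%, 33.4%, 48.8% and 26.2% of all genes were, so by this count only eWAT_SVF stood clear of all genes. Summed over the list, free RNA had 471, 563, 761 and 1140 CPM and cells 619, 773, 941 and 841 CPM. Hist1h4d had 24.3, 17.7, 19.1 and 77.8 CPM in free RNA and 39.7, 39.7, 37.6 and 33.4 in cells (-0.71, -1.17, -0.98 and 1.22). The linker histone gene Hist1h1e had 54.4, 65.7, 36.3 and 163 against 74.8, 85.7, 58.1 and 88.4 CPM (-0.46, -0.38, -0.68 and 0.88). For both genes levels in cells varied less between libraries than levels in free RNA, and the higher free RNA of eWAT_SVF was carried by the droplets of 21 to 100 UMIs. There the summed log2 difference was 0.61, against -0.03 in its droplets of 1 to 10 UMIs, and 8.98% of these deeper droplets held a histone UMI, against 2.82 to 2.96% in the other libraries. Hist1h2ab, which did not pass the level filter in the DFAT libraries, was at -0.48, -0.55, -0.91 and 1.38. Hist1h1d (-0.05, -0.25, -0.04 and 1.56), Hist1h2bj (0.26, -0.60, -0.26 and 1.52) and Hist1h4h (-0.92, -0.90, -0.28 and 1.11) passed it in eWAT_SVF only, through the free RNA in which they were high, so their values there are a description and no count is drawn from them. In the droplets of 1 to 10 UMIs of eWAT_SVF, Hist1h4d was at -1.04, Hist1h1d at -0.67, Hist1h2ab at -1.27, Hist1h4h at -0.37 and Hist1h2bj at 0.62. Hist1h1d, Hist1h2bj, Hist1h4h and Hist1h1c were singled out after their values were seen. Hist1h2bc and Hist1h1c were above 0 in all 4 libraries, at 0.07, 0.18, 0.07 and 0.10 and at 0.13, 0.07, 0.36 and 0.42. Genes of S phase other than histones were at medians of 0.04, 0.02, 0.14 and 0.04 (23 genes), and those of G2 and M phase at -0.15, -0.18, -0.11 and -0.10 (28 genes).

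Summed over a list of immune markers, most of them macrophage genes, transcripts made up more of the free RNA than of the cells in eWAT_DFAT. In eWAT_SVF the same held by far less. Over 20 listed immune markers, free RNA had 30.9, 112, 27.0 and 95.9 CPM and cells 31.7, 25.3, 26.2 and 77.4 CPM, so the summed log2 difference was -0.04, 2.15, 0.05 and 0.31. Outside the free RNA limit, at over 100 and up to 500 UMIs, it was 0.59, 2.21, -0.32 and 1.79. Of the list 10, 1, 4 and 3 members were at 0 in free RNA. In eWAT_DFAT the lysozyme gene Lyz2 had 51.4 CPM in free RNA and 2.54 in cells, on 381 and 472 UMIs, a log2 difference of 4.34. Lyz2 gave 381 of the 832 immune UMIs in this free RNA and passed the level filter there only through it, so its ratio too is a description, while the sum takes in the whole list at any level. In the other libraries Lyz2 had 0.552 against 0.278, 5.32 against 7.26 and 57.2 against 40.6 CPM. The signalling adaptor gene Tyrobp had 8.23 against 0.0808 CPM in eWAT_DFAT (61 free UMIs, 6.67), its partner Fcer1g 12.8 against 0.625 (4.36), and the complement genes C1qa, C1qb and C1qc 4.32 against 0.162, 3.91 against 0.140 and 1.75 against 0.0647 CPM (4.74, 4.80 and 4.76). The chemokine genes Pf4 and Ccl3 and the macrophage secreted factor Wfdc17, which the list does not hold, were at 98.1 against 1.68, 42.1 against 0.787 and 60.3 against 0.480 CPM (5.87, 5.74 and 6.98). They were named for their high ratio in eWAT_DFAT and passed the level filter there alone, through their free RNA, so these values are a description. In the other 3 libraries Pf4 had at most 2.11 CPM in free RNA, and Wfdc17 had 8.14, 0.420 and 1.27. The leukocyte marker Ptprc had 1 free UMI in eWAT_DFAT, and Csf1r, the 1 list member that passed the level filter in all 4 libraries, differed little there (13.8 against 13.1 CPM, 0.07). Tyrobp, the C1q genes and Ptprc were singled out after their values were seen. The immune UMIs of eWAT_DFAT lay mostly in the deeper droplets, with a summed log2 difference of 2.63 at 21 to 100 UMIs and 0.49 at 1 to 10. They were spread thinly: 0.889% of the droplets of 21 to 100 UMIs held at least 1 UMI of the 20 markers, and no droplet held more than 3 such UMIs. Among cells of eWAT_DFAT, 2.95% had a UMI of Pf4, 2.82% of Lyz2, 0.681% of Wfdc17 and 0.0928% of Tyrobp.

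**Figure D5:**
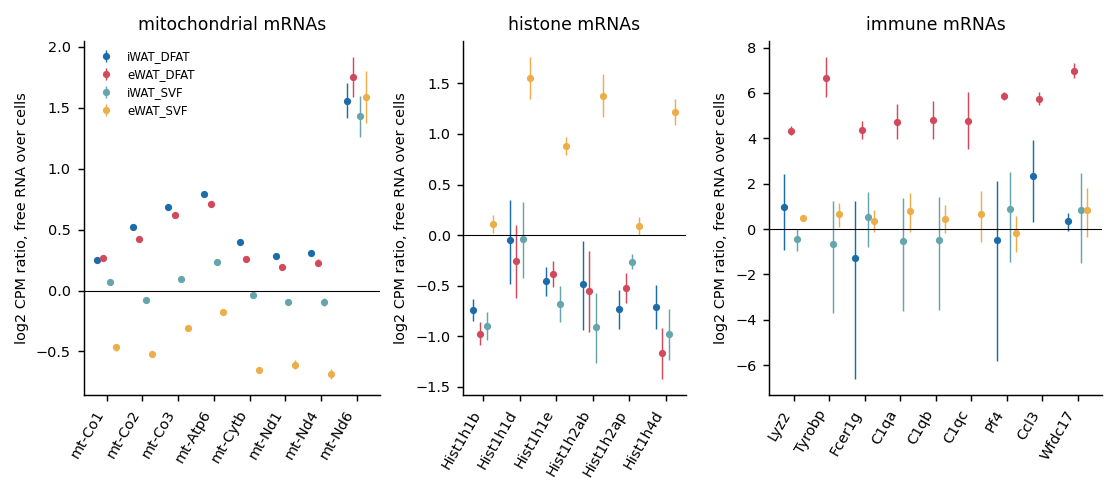
Log2 of free RNA over cells in each library for mitochondrial, histone and immune mRNAs, with bars for the 95% counting interval and no point where free RNA or cells had no UMI. Most mitochondrial mRNAs are above 0 in both DFAT libraries and below it in eWAT_SVF, Hist1h4d and Hist1h1e are above 0 in eWAT_SVF alone, and Lyz2, Pf4 and Wfdc17 lie highest in eWAT_DFAT.

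Markers of the cultured cells themselves were near the level they had in cells in both DFAT libraries, and below it in eWAT_SVF, as most genes were. The 8 stromal progenitor markers that passed had medians of -0.02, -0.01, 0.18 and -0.25, and 4 adipocyte markers 0.17, 0.08, 0.04 and -0.17. In eWAT_SVF 0 of the 8 and 0 of the 4 were above 0, where 1841 of 7112 protein-coding genes were and their median was -0.14, with the matrix proteoglycan gene Dcn at -0.51 and the lipase gene Lpl at -0.58. Summed over its list, the stromal group was higher in the free RNA of iWAT_SVF, at 0.29 (0.27 to 0.30). Fabp4, the fatty acid binding protein of adipocytes, had 350, 2195, 81.2 and 307 CPM in free RNA and 327, 2132, 81.0 and 334 in cells. The difference between depots was seen in free RNA too, although the summed levels of the depot factor lists were lower there than in cells (log2 -0.25, -0.44, -0.14 and -0.43 for inguinal factors and -0.35, -0.17, -0.26 and -0.36 for epididymal ones). The inguinal factor gene Tbx15 had 86.3 and 102 CPM in the free RNA of iWAT_DFAT and iWAT_SVF and 0.540 and 0.564 in the eWAT libraries, beside 91.3, 103, 0.372 and 0.532 in cells. The visceral factor gene Wt1 had 20.9 and 33.5 CPM in the free RNA of eWAT_DFAT and eWAT_SVF, against 0.138 in iWAT_DFAT and no UMI in iWAT_SVF, where 3 UMIs would be 0.420 CPM. Cells had 20.1, 34.8, 0.131 and 0.0150 CPM in that order of libraries. Summed over their lists, endothelial markers had 27.9, 80.3, 49.9 and 84.4 CPM in free RNA against 27.6, 73.4, 49.8 and 110 in cells. Mesothelial markers had 7.04, 46.2, 88.7 and 201 against 6.44, 37.8, 73.7 and 213, pericyte markers 32.6, 32.5, 67.1 and 45.4 against 31.2, 27.5, 51.0 and 40.5, and glial markers 26.9, 26.6, 45.8 and 8.17 against 28.0, 21.2, 42.8 and 11.5. Red blood cell genes were near absent, at 0.282 to 1.48 CPM in free RNA.

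Gene groups with known places in the cell differed by small amounts. The 81 ribosomal protein genes that passed had medians of -0.19, -0.15, -0.10 and 0.01 and the 76 nuclear-encoded subunits of oxidative phosphorylation -0.03, -0.03, 0.10 and 0.13, with 5, 7, 19 and 42 of the 81 and 32, 30, 56 and 53 of the 76 above 0, where 29.5%, 33.4%, 48.8% and 26.2% of all genes were. Collagens (15 genes) were at 0.10, 0.03, 0.23 and 0.00, secreted matrix glycoproteins (25) at 0.08, -0.02, 0.16 and -0.18, and genes of collagen and protein folding in the ER (19) at -0.11, -0.17, -0.13 and -0.39. Actin and contractile genes (17) were at -0.07, -0.07, 0.09 and -0.20, early response genes (26) at 0.10, 0.04, 0.16 and -0.18, and targets of NF-kB (12) at 0.10, 0.01, 0.18 and -0.15. Glycolysis genes (15) were at -0.09, -0.11, 0.20 and -0.27, with 4, 4, 13 and 3 above 0, which outside iWAT_SVF is near those shares of all genes. Of the heat shock genes (15), at -0.12, -0.13, -0.06 and -0.13, Hspa1b alone was past 2-fold, in iWAT_DFAT and eWAT_SVF. Of the interferon-stimulated genes (8), at 0.00, -0.07, 0.05 and -0.22, Xaf1 alone was past 2-fold, in iWAT_SVF (43.6 against 13.7 CPM, 1.67). Both were named after their values were seen. A list of long non-coding RNAs, nuclear-retained ones together with Gas5 (9 passing), was at -0.19, 0.08, 0.04 and -0.08. Malat1, the abundant nuclear RNA, had 10212, 9093, 10116 and 6810 CPM in free RNA and 8820, 7060, 8770 and 6751 in cells (0.21, 0.37, 0.21 and 0.01), and was higher in the shallow droplets (0.64, 0.57, 0.50 and 0.24) than in the deeper ones (-0.08, 0.24, -0.10 and -0.10). Neat1 was near parity, at -0.19, 0.08, 0.04 and -0.08. Most medians of these groups, those of the ribosomal protein and oxidative phosphorylation genes apart, were lower in eWAT_SVF than in iWAT_SVF, beside medians of all genes of -0.14 and -0.01.

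Between DFAT and SVF libraries few ratios differed alike in both depots. Of the 7207 genes 0 (0%) had a ratio at least 2-fold higher in DFAT than SVF in both depots, and 1 (0.0139%), Stac2, had one 2-fold lower. With the level filter on cells alone 0 had, since Stac2 is below 10 CPM in the cells of 3 libraries and passed in the SVF libraries only through its free RNA, so its values are a description. Stac2, an adaptor of voltage-gated calcium channels, had 22.2, 15.7, 31.1 and 15.8 CPM in free RNA and 14.1, 9.18, 5.71 and 4.26 in cells, so free RNA was within a 2-fold range and cells of the DFAT libraries were higher. Its log2 difference was 0.66, 0.77, 2.45 and 1.89, and DFAT minus SVF was -1.79 ± 0.31 in iWAT and -1.12 ± 0.39 in eWAT, where ± gives the reach of the 95% counting interval. In droplets of 1 to 10 UMIs its ratio was 0.33, 0.44, -0.18 and 0.93, and the call was lost (0 genes). It was also lost with each cell weighted equally, without barcodes that are cells in another library and at a filter of 50 CPM, but there Stac2, which stood close to the level filter in eWAT_SVF, fell below it, and the ratios themselves stayed past 2-fold apart. The genes next below it were Ppp6r1 (-0.74 ± 0.37 and -0.69 ± 0.41), Snhg9 (-0.57 ± 0.21 and -0.98 ± 0.29), Atp5k, a subunit of ATP synthase (-0.57 ± 0.09 and -0.73 ± 0.10), and Gm10076 (-0.67 ± 0.05 and -0.57 ± 0.04). Atp5k had 211, 199, 428 and 304 CPM in free RNA and 185, 184, 254 and 169 in cells. Gm10076, 384 nucleotides long, shares an identical stretch of 150 bases with the ribosomal protein gene Rpl41, so its counts are uncertain; it had 667, 796, 2684 and 1865 CPM against 935, 1108, 2363 and 1753, and Rpl41 was at -0.28, -0.21, 0.22 and 0.16. The genes furthest toward DFAT were mt-Co2 (0.59 ± 0.02 in iWAT and 0.95 ± 0.03 in eWAT), mt-Co3, mt-Atp6, Gm42418 (1.43 ± 0.02 and 0.56 ± 0.01) and Cmss1 (1.25 ± 0.05 and 0.54 ± 0.04). For Gm42418 and Cmss1 the iWAT difference rests on the iWAT_SVF library.

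Between depots 0 genes (0%) had a ratio 2-fold higher in iWAT in both cell types, and 3 (0.0416%) had one 2-fold lower: Gm42418, Cmss1 and Lars2. iWAT minus eWAT was -1.04 ± 0.01 in DFAT and -1.90 ± 0.02 in SVF for Gm42418, -1.13 ± 0.04 and -1.84 ± 0.05 for Cmss1, and -1.13 ± 0.08 and -1.65 ± 0.11 for Lars2. The DFAT value of Gm42418 did not come from free RNA, where iWAT_DFAT was slightly higher (49796 against 46946 CPM), but from cells (2706 against 1243 CPM). For Cmss1 and Lars2 too, free RNA levels, given above, were close in the DFAT libraries. Their DFAT values came mostly from cells, where iWAT_DFAT was higher. The SVF values of all 3 genes rest on the low free RNA of iWAT_SVF, whose header names another version of the counting program. In droplets of 1 to 10 UMIs no gene passed the 2-fold limit (0 genes). Camk1d (-2.23 ± 0.06 and -0.79 ± 0.10) and the chromatin factor gene Jarid2 (-0.64 ± 0.18 and -0.67 ± 0.31) came next. Toward iWAT lay Fah, the last enzyme of tyrosine breakdown, at 54.1, 26.7, 41.0 and 9.02 CPM in free RNA and 22.3, 17.9, 18.4 and 11.5 in cells. Its iWAT minus eWAT difference was 0.70 ± 0.26 in DFAT and 1.51 ± 0.40 in SVF. Pcolce, an enhancer of procollagen processing, had 419, 179, 627 and 324 CPM against 305, 181, 441 and 338 (0.46, -0.02, 0.51 and -0.06), and Pcsk6, Syngr2 and Gdf15 differed by 0.46 to 0.70.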

How the data were processed

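The authors deposited, for each of the 4 libraries, a matrix of raw UMI counts per gene and barcode, made with Cell Ranger on mm10 before any cell call. The submitters' processing notes name Cell Ranger 7.0.0; per the file headers 3 matrices came from 7.1.0 and that of iWAT_SVF from version 4. The stated method counts introns; whether this holds for iWAT_SVF is not known. CellBender, which the study used against background RNA, and DoubletFinder were not run here, and doublets were removed from the cells only as far as the upper limits on UMIs and genes do so.

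UMIs were summed over free RNA droplets and over cells of each library and scaled to 1000000. Genes needed a mean of 10 CPM over both sums in every library, and 2-fold was the limit for a call. With 1 library per group no test was run. Ratios carry exact conditional binomial 95% intervals and shares exact binomial (Clopper-Pearson) ones, for counting error only. A gene without UMIs was set against 3 counts. The intervals were tested on simulated data. Genes were named by rule: the 10 most extreme in each direction, the 5 most extreme for each comparison and library, the 4 most abundant of each gene list, list members past 2-fold in all 4 libraries, and a few known depot or culture genes. The members and the 34 lists were chosen with earlier results of these data known. Transcripts and positions were taken from GENCODE M21, which held 32235 of the genes in the files. Other limits on droplets, cells, filter, scaling and fold were tried. Scripts ran in Python 3.11.15 with numpy 2.4.6, scipy 1.17.1, pandas 2.3.3 and matplotlib 3.10.9.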

Additional observations from a re-analysis of the deposited data

Results flagged for a closer look

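In 5 of the genes named here the log2 ratio of free RNA over cells lay on opposite sides of 0 in the 2 kinds of library compared, with a 95% counting interval that left out 0 in each library. Genes that met this in sign only are not given, and neither is the share of all genes that met it. None of these differences was tested, since each group is 1 library. The value 0 is not the middle of all genes. Their medians were -0.11 in iWAT_DFAT, -0.07 in eWAT_DFAT, -0.01 in iWAT_SVF and -0.14 in eWAT_SVF. Gm10076, whose counts are uncertain because it shares sequence with Rpl41, was below 0 in both DFAT libraries (-0.49 in iWAT_DFAT and -0.48 in eWAT_DFAT) and above 0 in both SVF libraries (0.18 in iWAT_SVF and 0.089 in eWAT_SVF). Rpl41 itself was at -0.28 and -0.21 in the DFAT and 0.22 and 0.16 in the SVF libraries. The mitochondrial mRNAs mt-Co2 and mt-Cytb went the other way, mt-Co2 at 0.52 and 0.43 in DFAT and -0.074 and -0.52 in SVF, and mt-Cytb at 0.40 and 0.26 in DFAT and -0.037 and -0.65 in SVF. The matrix proteoglycan gene Bgn was above 0 in the iWAT libraries (0.053 in iWAT_DFAT and 0.38 in iWAT_SVF) and below 0 in the eWAT libraries (-0.11 in eWAT_DFAT and -0.12 in eWAT_SVF). Its eWAT values were near the medians of all genes in those libraries.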

How the results depend on the processing

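No paired analysis was possible because each group has 1 library and every replicate number is 1. A fit additive in depot and cell type, with 1 residual degree of freedom, was not run. The count of 19 of 7207 genes higher in all 4 libraries became 8 of 7193 with droplets of 1 to 10 UMIs and 8 of 2391 at a filter of 50 CPM. It became 9 of 7240 with the filter on cells alone and 31 of 7207 at 1.5-fold. With no filter and a pseudocount of 1 CPM it became 49 of all genes in the files. The lower count at 50 CPM is thus not a lower share of genes, nor the higher count without a filter a higher share. With 1 library left out, 19 to 24 genes were higher in all those kept. The 0 genes lower in all 4 became 2 at 1.5-fold, and stayed 0 to 0 with 1 library left out. With DFAT set against SVF, the 1 gene with a lower ratio in DFAT, Stac2, became 0 with droplets of 1 to 10 UMIs, where its ratio moved, and with cells weighted equally, at 50 CPM, with the filter on cells alone and without barcodes that are cells in another library, where it fell below the level filter. It became 2 with droplets of 11 to 100 or 21 to 100 UMIs, at 5 CPM, without a filter and at 1.5-fold, and 29 with droplets of 100 to 500 UMIs. The 0 genes with a higher ratio in DFAT became 11 with droplets of 100 to 500 UMIs and 2 at 1.5-fold. For iWAT against eWAT, the 0 higher became 25 with droplets of 100 to 500 UMIs, 2 without a filter and 1 at 1.5-fold, and the 3 lower became 0, 19 and 5 with droplets of 1 to 10 UMIs, droplets of 100 to 500 UMIs and 1.5-fold.

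The mt- log2 difference (0.55, 0.46, 0.07 and -0.41) became 0.81, 0.62, 0.23 and 0.18 with droplets of 1 to 10 UMIs, reversed in eWAT_SVF, 0.40, 0.37, -0.078 and -0.79 with 11 to 100 and 0.40, 0.37, -0.086 and -0.79 with 21 to 100, both reversed in iWAT_SVF, and 1.40, 2.61, 1.11 and -0.38 with 100 to 500. Without the mt- limit it was 0.54, 0.44 and -0.46 in iWAT_DFAT, eWAT_DFAT and eWAT_SVF, without the gene limit 0.56, 0.47, 0.084 and -0.40, and with cells weighted equally 0.54, 0.44, 0.0069 and -0.48. Of 8343 alternative values of named genes 2557 moved beyond their interval without the sign change of a value past 2-fold, and 8 values past 2-fold changed sign. With droplets of 1 to 10 UMIs these were Bc1 and Stac2 in iWAT_SVF, to -0.12 and -0.18, and Hist1h4h, Hist1h1d, Hist1h4d and Hist1h2ab in eWAT_SVF, to -0.37, -0.67, -1.04 and -1.27. Gm26917 in eWAT_DFAT went to -0.10 with 11 to 100 and -0.14 with 21 to 100 UMIs. Of 1344 alternative list medians 271 moved beyond their interval. The limits of 21 to 100 UMIs, totals without the rRNA locus genes and the filter on cells alone were chosen after seeing the data.

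Counting error is small for abundant genes and wide for low ones: 3 UMIs are 0.405 to 0.423 CPM in free RNA and 0.0150 to 0.0163 CPM in cells. The spread between cultures is unknown, since each group is 1 library. Whether a value of iWAT_SVF moved with the counting version was not tested.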

Other observations

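Some gene lists outside the comparisons above were read in free RNA as well. A list of 11 skeletal muscle genes had 10.9, 97.6, 155 and 453 CPM in the free RNA of iWAT_DFAT, eWAT_DFAT, iWAT_SVF and eWAT_SVF and 11.2, 81.1, 133 and 394 CPM in cells. Of the 11, 5, 6, 2 and 4 had no UMI in free RNA. Only 0, 2, 1 and 2 passed the level filter in these libraries, and these were Acta1 and Des. The smooth muscle myosin gene Myh11 had 1.52, 64.4, 69.6 and 349 CPM against 0.811, 57.3, 55.5 and 249 (log2 0.90, 0.17, 0.33 and 0.49). The proliferin genes, growth factor-like hormones of the placenta, had 260, 492, 9.11 and 3.24 CPM in free RNA and 282, 606, 7.94 and 2.22 in cells, so free RNA kept the gap between DFAT and SVF cultures. Epithelial markers had 1.52, 1.89, 2.52 and 14.1 CPM in free RNA and 0.234, 0.851, 2.08 and 16.6 in cells.

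Transcription factors of the inguinal depot summed to 448, 162, 466 and 152 CPM in free RNA and 533, 220, 514 and 205 in cells, and those of the epididymal depot to 155, 241, 151 and 269 against 198, 272, 181 and 344. Both sums were thus lower in free RNA in all 4 libraries. The medians over genes that passed the level filter were -0.18, -0.27, 0.03 and -0.24 (3 genes) and -0.46, -0.23, -0.20 and -0.44 (5 genes), and the sums kept the gap between depots. Acute phase and complement genes (5) were at 0.31, 0.26, 0.40 and -0.12.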
